A study of Mus musculus with 3 samples.

Results

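The 45 genes described here drive DNA replication and mitosis: 24 act in replication or in entry into S phase, 20 act in chromosome structure, mitotic control and cell division, and Pif1, a DNA helicase, stands alone. They were taken by gene symbol from a fixed list of names, and all 45 were found among the 55536 genes measured. The list was proposed with earlier results of these data in view, so the levels and the changes between libraries given below describe the genes and test nothing about the choice. The RNA came from the chromatin fraction of bone marrow-derived macrophages, which are phagocytes grown in culture out of marrow precursors, here of C57BL/6J mice. All cells had received Lipid A, the membrane anchor of bacterial lipopolysaccharide and a ligand of the receptor TLR4, at 100 ng/ml for 25 min. Total RNA was sequenced after removal of ribosomal RNA in 3 libraries of this 1 group, labelled biological replicates 1, 2 and 3, made from 1000, 250 and 500 ng of RNA. The labels give the same donor for all 3 and no age or sex, and they do not say that the cultures were separate, so error values and p-values measure the spread between these samples. Unstimulated cells are not analysed here, so no value below shows a response to Lipid A.

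Cells copy their DNA in S phase. In G1, ORC, Cdc6 and Cdt1 load rings of the Mcm2 to Mcm7 helicase on DNA, Cdc45 and GINS activate them, and polymerases held by the sliding clamp Pcna then copy both strands. Factors of the E2F family switch on many of these genes at the start of S phase, while the DREAM complex and B-MYB with FOXM1 time the mitotic genes through a promoter element called the CHR, often beside CCAAT boxes bound by NF-Y. Bone marrow-derived macrophages divide in the presence of the growth factor M-CSF, and Toll-like receptor stimulation is known to slow that division. Chromatin-bound RNA is rich in transcripts still being made, so a level here lies closer to transcription than a level in whole-cell RNA does.

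Promoter sequences of 36 of the 45 genes were matched in RefSeq (GRCm38.p6, the assembly also called mm10), as windows from 250 bases before to 50 bases after an annotated start. An E2F motif, spelled TTTCCCGC, TTTGGCGC or TTTGGCGG on either strand, lay in 8 of the 19 replication genes matched (Mcm3, Mcm5, Mcm6, Mcm7, Cdc6, Cdt1, Pola1 and Rfc3). It lay in 0 of the 17 mitotic genes matched and in 2.39% of all 27025 genes with a window. The following windows hold the E2F motif before a RefSeq start of 4 replication genes, 3 that load or form the helicase and 1 for the polymerase that starts DNA strands. The Cdc6 window lies inside the gene as GENCODE M21 annotates it, in an intron, and the other 3 lie outside their genes. They are shown 5′ to 3′ on the gene's strand, with E2F motifs (8 bases) and CCAAT boxes (CCAAT or its complement ATTGG) in capitals.
Mcm5, chr8:75109340-75109459, plus strand: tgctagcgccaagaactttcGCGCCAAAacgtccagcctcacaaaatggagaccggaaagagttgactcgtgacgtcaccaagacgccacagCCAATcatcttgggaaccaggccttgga
Mcm6, chr1:128359716-128359835, minus strand: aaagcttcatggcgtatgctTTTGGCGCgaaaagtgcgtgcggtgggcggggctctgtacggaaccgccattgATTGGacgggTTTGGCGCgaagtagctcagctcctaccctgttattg
Cdc6, chr11:98907993-98908112, plus strand: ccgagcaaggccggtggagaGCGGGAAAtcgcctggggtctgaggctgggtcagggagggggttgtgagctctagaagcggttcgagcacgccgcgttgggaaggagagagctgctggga
Pola1, chrX:93632194-93632313, minus strand: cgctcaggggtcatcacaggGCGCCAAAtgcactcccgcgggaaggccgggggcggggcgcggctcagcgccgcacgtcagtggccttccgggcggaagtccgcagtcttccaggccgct

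The CHR element, spelled TTTGAA or TTCGAA on either strand (the latter reads the same on both), lay in 14 of the 17 mitotic genes matched. Cenpe, Ccnb1 and Birc5 held none of these letters in their windows. It lay in 4 of the 19 replication genes (Mcm2, Mcm7, Cdc45 and Rfc3) and in 21.7% of all genes with a window. CCAAT boxes were more evenly spread, in 13 of 19 replication genes, 14 of 17 mitotic genes and 41.1% of all genes. The pair of a CHR element and a CCAAT box, on either strand and at any distance in the window, lay in 12 of 17 mitotic genes, 4 of 19 replication genes and 8.61% of all genes. None of these spellings contains another. The windows below show CHR elements (6 bases) of 4 mitotic genes in capitals, as are the CCAAT boxes (5 bases) of Top2a, Cdk1 and Cdc20. The CCAAT boxes of Mki67 lie further from its start than the stretch shown. The windows of Cdk1 and Cdc20 are cut short to leave out annotated exons.
Mki67, chr7:135716396-135716515, minus strand: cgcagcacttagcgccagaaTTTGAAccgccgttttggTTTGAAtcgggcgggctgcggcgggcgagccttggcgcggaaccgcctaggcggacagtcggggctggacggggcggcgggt
Top2a, chr11:99024269-99024388, minus strand: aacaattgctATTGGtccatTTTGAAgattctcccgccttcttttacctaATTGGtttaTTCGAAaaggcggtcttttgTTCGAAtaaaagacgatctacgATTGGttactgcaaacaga
Cdk1, chr10:69352939-69353032, minus strand: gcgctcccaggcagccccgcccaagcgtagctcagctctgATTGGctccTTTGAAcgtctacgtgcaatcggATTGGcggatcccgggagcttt
Cdc20, chr4:118437353-118437463, minus strand: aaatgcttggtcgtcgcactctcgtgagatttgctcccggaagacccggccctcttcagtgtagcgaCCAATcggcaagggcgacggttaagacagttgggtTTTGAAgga

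In the Mki67 window a pair of CHR elements lies close together, while the Top2a window holds 3 CHR elements and 3 CCAAT boxes. Mcm6 carries the E2F motif on both sides of a CCAAT box. A match describes these letters in these windows and shows no binding. The promoters of Mcm4, Gins1, Pole and Aurka start within 1 kb of a coding gene on the other strand (Prkdc, Abhd12, Pxmp2 and Cstf1).

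The gene tables held 13318778, 19162031 and 19147906 expected counts in replicates 1, 2 and 3. Of these, 11584, 11816 and 8006 fell on the 45 genes, and 7627, 3265 and 2858 of them on Mki67 alone. For a gene with no count, counting error alone allows up to 0.225, 0.157 and 0.157 CPM, counts divided by the library total. Totals per gene over the 3 libraries ran from 26.3 (Rfc4) to 13750 (Mki67), with a median of 250, and 10 genes had fewer than 100. RNA of the ribosomal DNA locus took 8.59% of the counts of replicate 1 but 27.2% and 23.2% of those of replicates 2 and 3. Levels between genes are therefore given as TPM (counts per transcript length, scaled to a fixed sum per library), and libraries are compared by scaled CPM, in which edgeR's TMM factors offset such differences.

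Replication genes were present at low to middling levels. All 24 had a mean of at least 1 TPM, 5 reached 10 TPM, and their median was 5.84 TPM, against 13.5 TPM over the 14108 genes tested. The genes tested had passed a count filter. Over the 23783 genes of at least 300 nt with a count, the median was 3.32 TPM. Among the helicase and its loaders, Mcm10, which helps start the unwound fork, had the highest mean TPM. It had 11.1, 14.2 and 11.7 TPM in replicates 1, 2 and 3, and Mcm6 was above it in replicate 2. The ring subunits Mcm6 (7.73, 15.7 and 7.24 TPM), Mcm7 (6.49, 13.5 and 8.60) and Mcm2 (6.97, 11.3 and 8.30) followed. Mcm3 (3.67, 7.37 and 4.55 TPM) and Mcm5 (5.94, 7.03 and 4.14) were lower, and Mcm4 had 1.48, 3.19 and 2.43 TPM. The 6 subunits form a ring with 1 copy of each, yet their mean levels spread from 2.37 ± 0.859 TPM for Mcm4 to 10.2 ± 4.75 TPM for Mcm6 (SD, n = 3). The loading factor Cdt1, which is destroyed once S phase begins, gave 4.83, 11.4 and 6.53 TPM, and its partner Cdc6 2.54, 2.56 and 1.10 TPM. The helicase activators were also low, with Cdc45 at 3.06, 5.61 and 2.56 TPM and the GINS subunit Gins1 at 2.05, 2.32 and 2.30 TPM. Gins2, the other GINS subunit in the list, gave 5.39, 6.91 and 6.33 TPM, with a share of its counts on retained-intron isoforms that depended on the table, as described below.

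The clamp gene Pcna (mm10, chromosome 2, 132249162 to 132253314) stood above every other replication gene at 77.1, 54.7 and 39.2 TPM. Its mean of 57.0 ± 19.0 TPM lay above 89.4% of the 23783 genes of at least 300 nt that had a count. Pola1, the catalytic subunit of the polymerase that primes each DNA strand, varied little in TPM, at 24.9, 25.1 and 22.8. In scaled CPM, the unit for comparing libraries, it had 42.2, 58.7 and 47.9 and was highest in replicate 2. Pole, the catalytic subunit of the leading-strand polymerase, gave 4.48, 7.16 and 2.80 TPM. The clamp loader subunits differed, with Rfc3 at 4.49, 6.64 and 6.84 TPM and Rfc4 at 1.71, 1.11 and 0.936 TPM. Rfc4 had only 8, 10 and 8.29 counts and overlaps Eif4a2 on the opposite strand.

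Genes for nucleotide supply were uneven. The large subunit of ribonucleotide reductase, Rrm1, gave 7.25, 14.7 and 9.92 TPM and the small subunit Rrm2, whose supply limits the enzyme in S phase, 2.15, 5.36 and 2.22 TPM. Thymidylate synthase, Tyms, gave 3.97, 4.87 and 2.31 TPM. Among the genes of S phase entry, the transcription factor E2f1 was at 5.57, 7.64 and 6.44 TPM. Uhrf1, which brings the maintenance DNA methyltransferase to newly copied DNA, was at 3.95, 11.4 and 6.35 TPM. The E cyclins, partners of Cdk2 at the G1 to S transition, went opposite ways across the libraries: Ccne2 had 7.85, 5.10 and 3.34 TPM, while Ccne1 had 0.793, 2.85 and 3.25 TPM from 5, 24 and 17 counts.

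Of the mitotic genes, Mki67 and Kif23 stood far above the rest. Mki67 (mm10, chromosome 7, 135689784 to 135716361), which coats mitotic chromosomes and marks dividing cells, had 133 TPM in replicate 1 but 36.6 and 34.0 TPM in replicates 2 and 3. Its mean was 68.0 ± 56.7 TPM, and 35.3 TPM without replicate 1. Kif23, a motor of the central spindle needed for cytokinesis, had 46.6, 48.7 and 33.5 TPM, and Top2a, which untangles replicated chromosomes, 20.0, 25.2 and 12.0 TPM. The other 17 lay between 1.05 and 9.88 TPM in the mean, and the median of the 20 was 4.13 TPM. Cenpe, a kinesin of the kinetochore, was the highest of these at 7.81, 13.9 and 7.88 TPM. Its kinetochore companions Cenpf (3.12, 4.28 and 1.79 TPM), Ndc80 (4.50, 6.91 and 2.87), which binds microtubules, and Birc5 (2.78, 4.18 and 2.12), or survivin, were lower.

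The kinase that commits cells to mitosis, Cdk1, was at 3.17, 2.90 and 1.75 TPM. Its cyclins were at similar levels, with Ccna2 at 4.60, 5.13 and 1.56 TPM, Ccnb1 at 1.55, 7.39 and 2.28 TPM, and Ccnb2 lowest of all 45 genes in the mean, at 1.43, 1.10 and 0.621 TPM. Aurkb, the kinase that Birc5 brings to centromeres, had 6.80, 7.89 and 4.14 TPM, Aurka of the spindle poles 2.81, 4.16 and 1.57 TPM, and Plk1, a kinase of mitotic entry, 1.96, 2.39 and 1.70 TPM. The spindle checkpoint proteins Bub1 (6.79, 4.68 and 2.28 TPM) and Bub1b (3.44, 7.27 and 2.78) exceeded Cdc20 (1.29, 2.39 and 1.39), which they hold in check until chromosomes are attached. The spindle genes Kif11 (4.55, 7.34 and 3.28 TPM), a motor that separates the poles, Anln (5.05, 7.71 and 4.61), the anillin of the cleavage ring, and Tpx2 (2.21, 3.70 and 3.15), an activator of Aurka, completed the group. Pif1 had 0.509, 2.86 and 0.473 TPM.

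**Figure D1:**
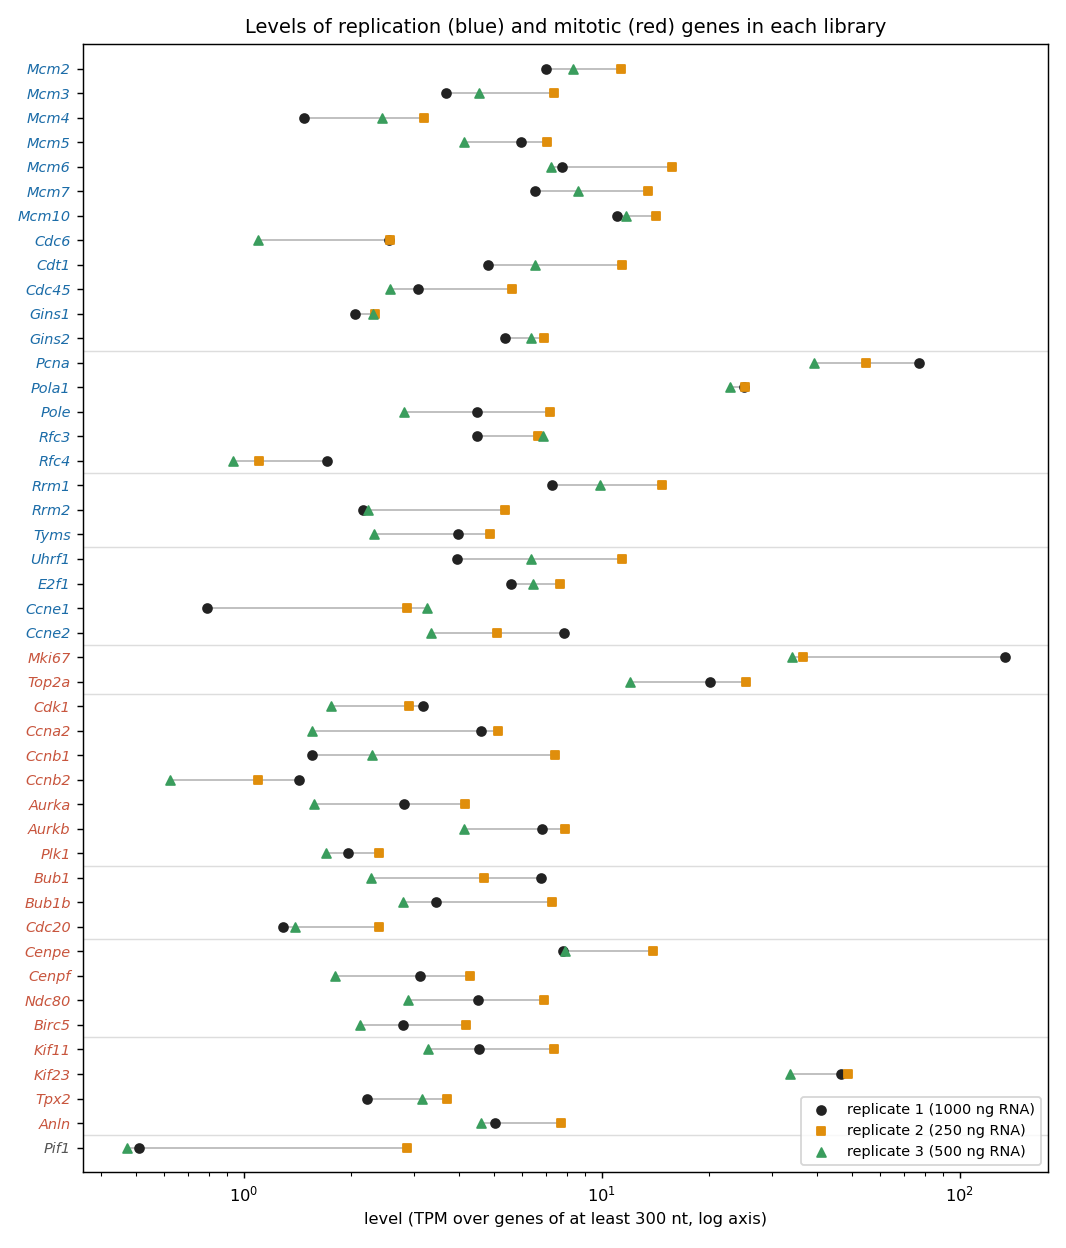
Level of each of the 45 genes in each library, in TPM over genes of at least 300 nt on a log axis, grouped by role from the helicase genes at the top to Pif1 at the bottom. Circles, squares and triangles are replicates 1, 2 and 3, and grey lines join the lowest and highest. Mki67, Pcna, Kif23 and Pola1 lie to the right of most others, and the squares of replicate 2 are the rightmost points for most genes.

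The replication and mitotic groups were close in level. The mean log2(TPM + 1) of the 24 replication genes minus that of the 20 mitotic genes was -0.04, 0.16 and 0.41 in replicates 1, 2 and 3, or 0.18 ± 0.23 (SD, n = 3). The difference was smaller than its own spread between libraries and had the opposite sign in replicate 1. Without Mki67, a setting added after seeing the data, it was positive in every library, at 0.19, 0.28 and 0.57, with a mean of 0.35. Without replicate 3 the mean was 0.06. On log2(CPM + 1), which leaves out gene length, the sign turned to -0.08. The order of the groups was therefore not settled by these libraries.

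Nearly every gene was most abundant in replicate 2, the library made from the least RNA. In scaled CPM, 42 of the 45 genes were highest there, which was the case for 34.0% of all genes tested. The exceptions were Mki67, Ccne2 and Ccnb2, highest in replicate 1, although Ccnb2 was nearly equal in replicates 1 and 2 (0.742 and 0.730 CPM). Replicate 2 exceeded replicate 1 by a median log2 ratio of 0.97 for the replication genes (1.95-fold) and 1.02 for the mitotic genes (2.02-fold), against 0.02 over all genes tested. Ratios were taken after adding 0.1 CPM. Replicate 2 exceeded replicate 3 by medians of 0.71 and 1.07, against 0.01 over all genes. Thus the groups gave like values against replicate 1, and the mitotic genes the larger one against replicate 3. In bulk samples, a different number of dividing cells and a different amount of RNA per dividing cell cannot be told apart. Each RNA amount was 1 library, so neither can be told apart from an effect of RNA amount or of library preparation. None of these was tested.

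The groups as listed here parted between replicates 1 and 3, while the wider lists of both pathways described below did not part this way. Replicate 3 was above replicate 1 in 17 of 24 replication genes but in 8 of 20 mitotic genes, and in 50.6% of all genes tested. The median log2 ratio of replicate 3 over replicate 1 was 0.35 for replication genes, with quartiles of -0.06 and 0.59, and -0.15 for mitotic genes, with quartiles of -0.38 and 0.12. The quartile ranges overlapped. The difference of 0.50 between the medians was 0.35 in the kallisto-type counts and 0.67 in TPM, both centred on the median gene and both chosen after seeing the data. In these units replicate 3 was above replicate 1 in 16 and 17 of the 24 replication genes and in 6 and 6 of the 20 mitotic genes. The genes were picked with results of these libraries known, so no test is given.

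Examples show the contrast in scaled CPM more sharply than the groups did. The log2 ratios of replicate 3 over replicate 1 were 0.95 for Cdt1 and 0.94 for Mcm4, against a median of 0.35 for replication genes. The 8 of 20 mitotic genes with replicate 3 above replicate 1 included Cdc20 (0.80), Plk1 (0.43), Ccnb1 (0.34) and Bub1b (0.33). Cdt1 had 2.97, 10.4 and 5.81 CPM in replicates 1, 2 and 3, so that replicate 3 lay between the others. Mcm4 had 1.96, 4.21 and 3.86 CPM, with replicate 3 close to replicate 2. Among the mitotic genes, Top2a had 19.0, 37.8 and 14.9 CPM and Kif11 7.90, 16.2 and 6.68 CPM. In both, replicate 3 was a little below replicate 1 and replicate 2 stood above them. Cenpe had 23.6, 46.5 and 24.1 CPM, with replicates 1 and 3 alike. Rrm2, a replication gene, ran with the mitotic pattern at 1.01, 2.86 and 0.761 CPM, and Pcna was more even, at 22.0, 24.9 and 14.7 CPM.

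Mki67 went the other way, at 515, 183 and 155 CPM. Its log2 ratios to replicate 1 were -1.49 in replicate 2 and -1.73 in replicate 3, the lowest of the 45 genes for both. The gene overlaps Gm45240 on the opposite strand, and its counts were almost all on the full-length coding transcript Mki67-201 in every library (7627, 3263 and 2856 counts). Among the replication genes with an E2F motif, 8 of 8 were highest in replicate 2 and 7 of 8 had replicate 3 above replicate 1. Among the mitotic genes with a CHR element these counts were 12 and 5 of 14. The motif groups thus gave counts near those of the classes they belong to.

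**Figure D2:**
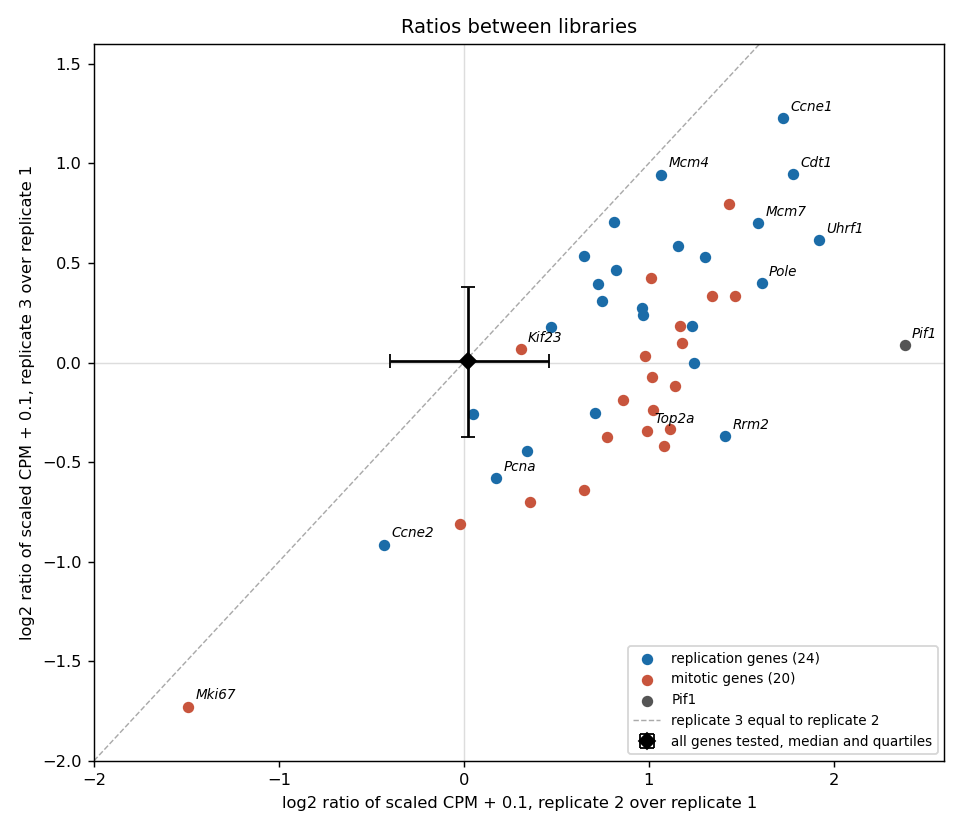
Log2 ratios of scaled CPM (with 0.1 CPM added) of replicate 2 over replicate 1 (horizontal) and of replicate 3 over replicate 1 (vertical), 1 point per gene, with the median and quartiles of all 14108 genes tested as a black diamond and bars. Most points lie to the right of 0 and below the dashed line where replicates 2 and 3 are equal, the mitotic genes (red) mostly lower than the replication genes (blue), and Mki67 lies alone at the lower left.

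The same differences appear in a fit of each gene against the RNA amount, the only recorded difference between the libraries. edgeR's quasi-likelihood test was run on 14108 genes, with slopes given as log2 change per doubling of the amount and Benjamini-Hochberg adjusted p under 0.05 called. With 3 libraries the fit has 1 residual degree of freedom, and each amount is 1 library, so amount and library cannot be told apart. Of the 45 genes 41 were tested, all but Rfc4, Ccne1, Ccnb2 and Cdc20, whose counts were too low. Of all genes, 4.71% were called higher with more RNA and 3.09% lower. Of the 41 genes, 1 was called higher and 10 lower. Because these slopes were known when the genes were proposed, the counts describe the list and support nothing further.

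The median slope was -0.49 for the 22 replication genes tested and -0.53 for the 18 mitotic genes, against -0.01 over all genes. Slopes were below 0 in 39 of the 41 genes, Mki67 and Ccne2 being the others. Among the replication genes called, Uhrf1 (mm10, chromosome 17, 56303321 to 56323486) had the steepest slope at -1.002 (SE 0.22), followed by Cdt1 at -0.90 (SE 0.22), Pole at -0.83 (SE 0.19), Mcm7 at -0.82 (SE 0.22) and Mcm2 at -0.59 (SE 0.19). Their adjusted p-values by edgeR's quasi-likelihood test ran from 0.00308 for Uhrf1 to 0.0499 for Mcm2. In scaled CPM Uhrf1 had 2.70, 10.5 and 4.18 and Pole 5.53, 17.1 and 7.34. Mcm7 overlaps Cops6 and Ap4m1, and Pole overlaps Gm15792, on the opposite strand.

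The mitotic genes called lower were Bub1b at -0.70 (SE 0.22), Cenpf at -0.59 (SE 0.19), Top2a at -0.51 (SE 0.16) and Cenpe at -0.50 (SE 0.15). Mki67 was the gene called higher, at 0.75 (SE 0.14, edgeR adjusted p = 0.000576). Pif1 had the steepest slope of the list at -1.46 (SE 0.31, edgeR adjusted p = 0.00166), from 0.607, 3.59 and 0.652 scaled CPM in replicates 1, 2 and 3. Replicate 3, of intermediate amount, lay below replicate 1 in 12 of the 20 mitotic genes, so in those genes the values did not run in the order of amount. DESeq2 called 0 of the 41 higher and 2 lower, Uhrf1 and Pole, against 1.99% and 0.617% of all genes, and gave no adjusted p for 11. In the kallisto-type counts, where all 45 were tested, edgeR called 1 higher and 3 lower, against 1.49% and 0.697%. With the amount in ng it called 1 higher and 19 lower, against 10.7% and 10.8%. By DESeq2 Mki67 had nearly the same slope, 0.76, with an adjusted p of 0.488.

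**Figure D3:**
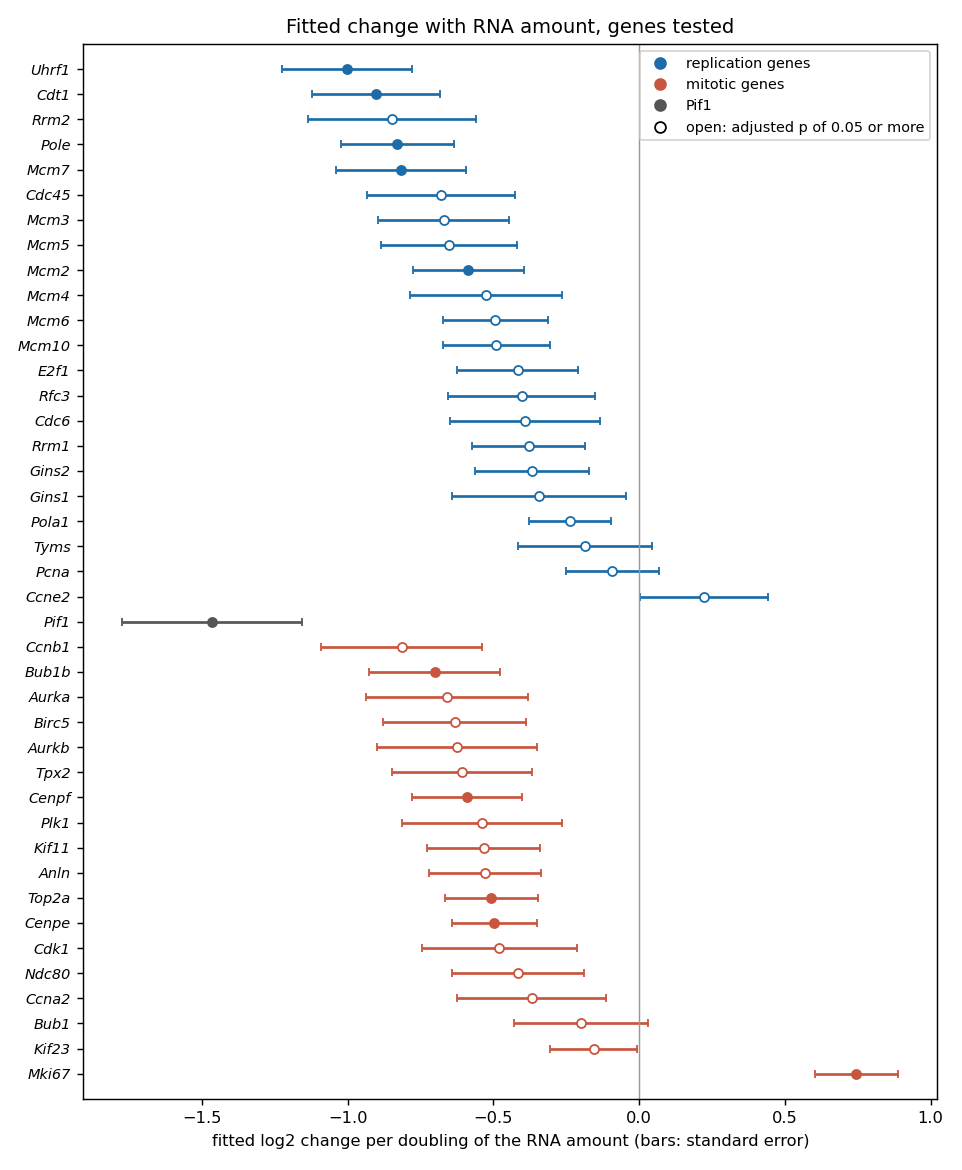
Fitted log2 change per doubling of the RNA amount, with standard errors, for the 41 genes tested, sorted within replication genes (blue), Pif1 (grey) and mitotic genes (red). Filled points have an edgeR adjusted p under 0.05. All points but Ccne2 and Mki67 lie left of 0.

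The median slope of the replication genes minus that of the mitotic genes was 0.04, small beside the spread of slopes. Without replicate 2 it was -0.50, and between the other pairs of libraries it was 0.34 (without replicate 1) and 0.03 (without replicate 3). Its sign thus rested on replicate 2. On mean slopes it was -0.05, and in the kallisto-type counts -0.09.

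Wider lists of the same pathways, written down with earlier results known, gave uneven counts. For the counts called in these lists and those below, the shares over all genes tested were 4.71% higher and 3.09% lower. Of 46 other replication genes 41 were tested, and 0 were called higher and 4 lower by edgeR, with a median slope of -0.14. The 4 were Clspn, a fork checkpoint adaptor (-0.81), Lig1, the ligase of Okazaki fragments (-0.81), Pold1, the lagging-strand polymerase (-0.75), and Dnmt1, the maintenance methyltransferase (-0.42). Of the 41, 56.1% were highest in replicate 2, against 95.8% of the 24 replication genes described above. The highest by level were Rfc2 at 120 ± 17.3 TPM, Orc3 at 109 ± 17.1 TPM and Tk1 at 99.6 ± 27.5 TPM (SD, n = 3), all of them above Pcna.

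Of 50 other mitotic genes 47 were tested, and 1 was called higher and 12 lower, with a median slope of -0.49 and 85.1% highest in replicate 2. Replicate 3 was above replicate 1 in 31 of these 47 and in 23 of the 41 other replication genes. The median log2 ratios of replicate 3 over replicate 1 were 0.18 and 0.17. Troap (-1.18), Kif4 (-1.04), a chromosome kinesin, and Kif18b (-0.93), a microtubule depolymerase, had the steepest slopes. The gene called higher was Mad2l1, the checkpoint protein Mad2, at 19.4, 7.86 and 7.88 scaled CPM (slope 0.66). It thus shared the course of Mki67. The centromeric histone gene Cenpa (216 ± 54.7 TPM), the condensin subunit Smc4 (94.0 ± 14.5) and Incenp (90.5 ± 29.5), a scaffold for Aurkb, had the highest levels (SD, n = 3).

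Among 24 cell cycle brakes and E2F regulators, 21 were tested and the median slope was 0.02. Cdkn1a, the p21 inhibitor of cyclin-dependent kinases, was the highest at 709, 333 and 571 TPM, followed by Rb1 at 253, 125 and 134 TPM, the brake on E2F factors, and Rbl2 at 46.9 ± 10.6 TPM, a subunit of DREAM. Cdkn1a was called higher with more RNA (slope 0.43) and was lowest in replicate 2. In scaled CPM, 8 of the 21 genes tested were lowest in replicate 2 and 8 were highest there. Of all 14108 genes tested, 4488 were lowest and 4798 highest in replicate 2. E2f8 was also called higher (0.62), and E2f7 (-1.14) and Cdkn2c (-0.96) lower. E2f7 and E2f8 both encode repressors of E2F targets, and they went opposite ways, with E2f7 at 1.01, 4.27 and 1.09 and E2f8 at 13.4, 5.73 and 6.96 scaled CPM. Cdkn2a had 0 counts in all 3 libraries. Of 9 G1 cyclins and kinases 8 were tested and 1 was called, Ccnd1 (-0.71). Cdk6, Cdk4 and Skp2 were the highest at 119.5 ± 13.5, 35.6 ± 8.06 and 19.5 ± 0.827 TPM.

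Markers of the labelled cell type were strong. All 10 macrophage genes exceeded 10 TPM in the mean and summed to 3703, 2249 and 2758 TPM, led by Ptprc, Csf1r and Cd14. Their median slope was 0.01, and 1 of 10, Ptprc, was called, in the higher direction. Genes of dividing marrow progenitors summed to 3.92, 2.58 and 2.93 TPM over 9 genes, with the sum lowest in replicate 2, and Elane and Ctsg were at 0. The median of their mean levels was only 0.108 TPM. The 1 gene of these with enough counts to be tested was lowest in replicate 1 in scaled CPM. Its log2 ratio of replicate 2 over replicate 1 was 0.73 and its slope -0.34. The T, NK and B cell list summed to 0.138, 0.0869 and 0.188 TPM, with Cd3e, Cd3g, Thy1, Klrb1c and Pax5 among the genes at 0. Neutrophil (7 genes), dendritic, mast and basophil (5 genes) and stromal and endothelial (6 genes) lists summed to at most 4.83, 3.67 and 8.47 TPM. In the erythroid and megakaryocyte list, only 3 of the 7 genes had enough counts to be tested. These (Pf4, Itga2b and Epor) were all highest in replicate 2, as were most replication and mitotic genes. The 7 genes summed to 26.0, 61.6 and 37.9 TPM, with Hbb-bt among those at 0. Only 1 of the 7 reached 10 TPM in the mean, at 33.65 TPM, and the median of their mean levels was 0.24 TPM. Pf4, a platelet chemokine that macrophages can also express, had 1.55, 5.11 and 2.77 scaled CPM (slope -0.86), and Itga2b 1.62, 6.57 and 2.39 (slope -1.05). The part of such cells in the results above was not tested. The share of ribosomal DNA locus RNA, 8.59%, 27.2% and 23.2%, also differed between the libraries. With those genes left out of the fit, 7 of the 41 genes were called 1 higher and 6 lower, and the median slope was -0.53. In that fit 4.31% of all genes tested were called in the higher and 2.55% in the lower direction.

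On average, replication genes carried a larger share of their counts on retained-intron transcripts than mitotic genes. The share is the percent of a gene's transcript counts on isoforms annotated as retaining an intron, for genes with at least 50 counts and such an isoform. Over 18 replication genes it averaged 26.9%, 29.85% and 28.1% in replicates 1, 2 and 3, and over 14 mitotic genes 20.6%, 16.5% and 14.8%. The difference was 6.27, 13.3 and 13.3 percentage points, or 11.0 ± 4.08 (SD, n = 3), and its sign was the same in each library. Over 6733 genes the share averaged 32.5%, so both groups lay below it. The share depends on which isoforms the annotation lists, and unspliced RNA of an intron without such an isoform is not counted.

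Single genes differed widely in the RSEM-type table, the source of the counts above unless kallisto-type counts are named. There Gins2 had 69.6%, 82.0% and 61.1% of its counts on such isoforms and Cdt1 66.0%, 75.2% and 60.9%. Both lie on chromosome 8, and Gins2 overlaps Gse1 on the opposite strand while Cdt1 shares bases with Gm20388 on its own strand. Tyms followed at 49.98%, 58.2% and 67.3%. Pcna had 44.3%, 36.3% and 46.6%. Pola1, the longest gene of the list at 327389 bases, had 0.326%, 1.46% and 1.72%, and Mcm6 2.29%, 5.05% and 0.646%. Among mitotic genes Ccnb1 was highest at 61.2%, 57.8% and 56.4%, Kif23 had 48.2%, 49.2% and 37.4%, and the long genes Cenpe (0%, 1.31% and 1.33%) and Tpx2 (1.98%, 0.579% and 0%) lowest. The libraries disagreed for some genes, such as Rfc3 (26.8%, 62.2% and 44.5%), Rrm2 (23.3%, 22.7% and 57.1%) and Aurka (28.6%, 20.0% and 5%).

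The shares of single genes depended on the quantification, a comparison chosen after seeing the data. Of the 33 genes measured in both tables, 13 had means more than 10 percentage points apart, and the median difference in either direction was 6.24 points. In kallisto-type counts Pola1 had 19.3%, 16.5% and 17.9%, and Gins2 24.5%, 57.9% and 26.7%. Tyms had 13.6%, 16.1% and 15.98% there, Pole 77.4%, 61.4% and 69.3%, and Rrm1, a subunit of the enzyme that makes deoxyribonucleotides, 84.7%, 69.6% and 77.7%. The means of Pole and Rrm1 in the RSEM-type table were 21.1% and 29.1%. Cdt1 and Ccnb1 were high and Cenpe and Tpx2 low in both tables, with means of 92.4%, 79.3%, 1.65% and 3.22% in kallisto-type counts. Over the 20 replication and 15 mitotic genes measured there, the averages of the groups differed by 8.59 points, in the same direction.

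**Figure D4:**
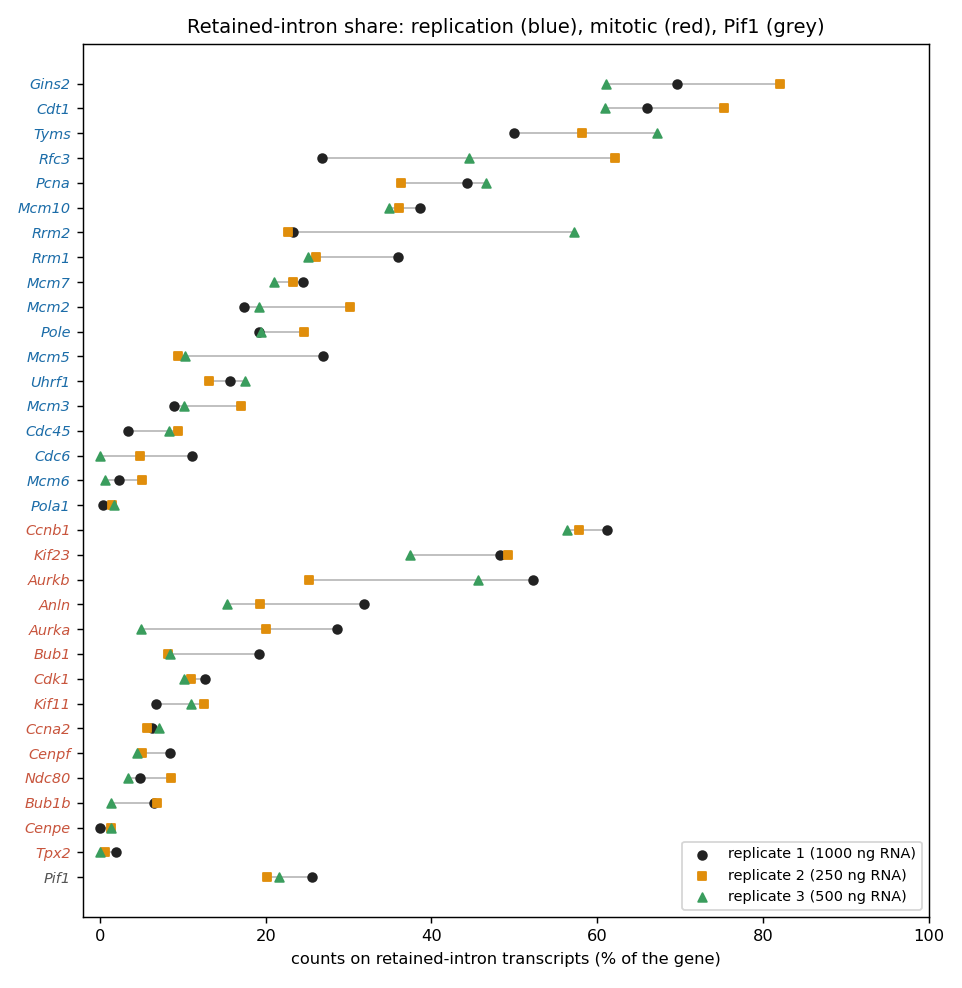
Percent of each gene's transcript counts in the RSEM-type table on retained-intron isoforms, with circles, squares and triangles for replicates 1, 2 and 3 and grey lines joining lowest and highest, for the 18 replication genes (blue), 14 mitotic genes (red) and Pif1 (grey) measured. Shares run from near 0% in Pola1, Cenpe and Tpx2 to above 60% in Gins2 and Cdt1.

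How reads were assigned changed the level of several genes. The kallisto-type table gave more counts than the RSEM-type table for most genes, with a median ratio of 1.66 over all genes tested, 1.91 over the replication genes and 2.19 over the mitotic genes. Ratios above 3 were found in 5 of 24 replication and 5 of 20 mitotic genes, against 14.5% of all genes tested. Birc5 (ratio 7.30) owed its excess to isoform Birc5-202, with 27.6, 84.1 and 40.1 counts in the RSEM-type table and 409.8, 464 and 349.8 in the other. Tyms (ratio 7.12) had 0, 6.77 and 0 against 323, 315 and 214 counts on Tyms-201. For Cdk1 (ratio 4.73) the isoform Cdk1-207 held 0 counts in the RSEM-type table and 107, 101 and 92.8 in the other. Kif23-202, a processed transcript without coding sequence, held 0, 0 and 3.59 against 317, 327 and 288 counts. In TPM of the kallisto-type table the mean level was 16.3 for Cdk1, against 2.61 above, 92.4 for Kif23 against 42.9, 12.1 for Tyms against 3.72 and 24.1 for Rrm1 against 10.6. Gins2 went the other way with a ratio of 0.396. Mki67 differed little (1.26). Its excess in replicate 1 was present in both tables, with 9326, 4185 and 3797 kallisto-type counts in replicates 1, 2 and 3. The sources used here do not give the strand setting of the counting, and 14 of the 45 genes overlap a gene on the opposite strand, among them Mki67, Pole, Mcm7, Cdc45, Ccna2, Ccne2 and Cdc20. Reads of such partners cannot be told apart without strand.

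**Figure D5:**
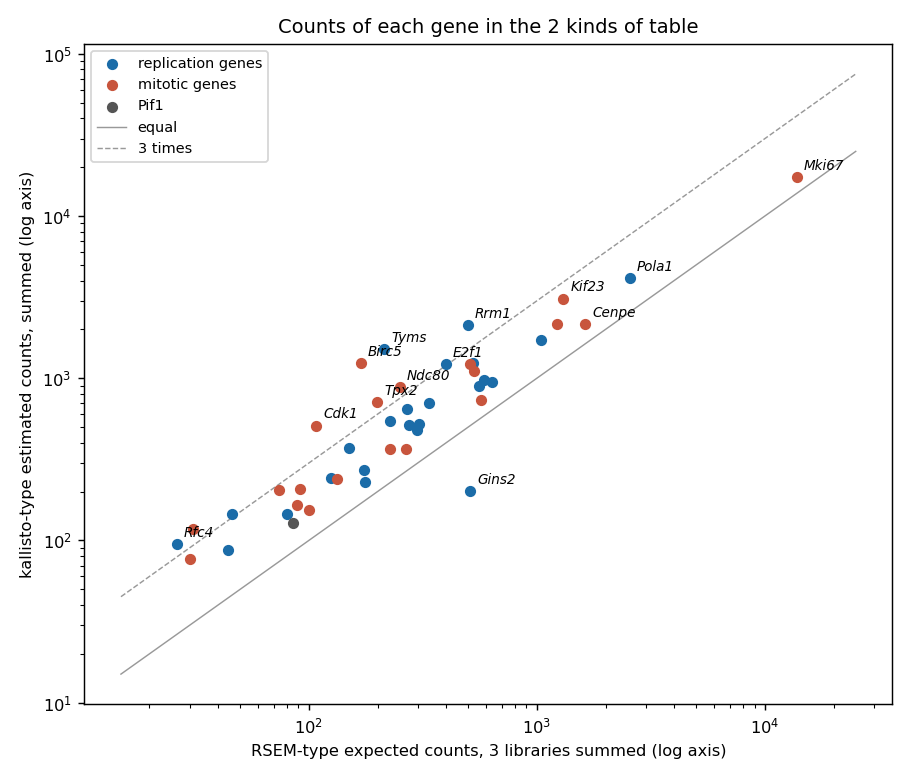
Counts of each gene summed over the 3 libraries in the RSEM-type table (horizontal) and the kallisto-type table (vertical), both on log axes, with lines for equal counts and for 3 times as many. Birc5, Tyms, Cdk1 and Rrm1 lie above the dashed line, Mki67 lies close to the line of equal counts, and Gins2 lies below it.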

How the data were processed

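Chromatin-fraction total RNA of 3 libraries of 1 group was measured. For each library the authors deposited gene and transcript tables with expected counts and TPM in RSEM's column layout, per the file headers. A further deposited transcript table has estimated counts and TPM in kallisto's layout. Assembly mm10 and annotation release M21 are given by the deposited readme files. The sources used here give no aligner, version, read filter or strand setting. The 26248 tRNA and 97 spike-in or other entries were left out of totals and tests. TPM were recomputed from the deposited expected counts and effective lengths over genes of at least 300 nt.

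The genes, their classes and the 181 genes of the wider lists were chosen with earlier results of these data known. All 45 were named, and of other lists the 3 highest and up to 3 called in each direction by size. Counts rounded to whole numbers were fitted against log2 RNA amount with edgeR 4.0.16 (TMM, filterByExpr over all libraries, quasi-likelihood F test, Benjamini-Hochberg) in R 4.3.3. The fit was tested on simulated data. Scaled CPM use the same TMM factors (1.12, 0.931 and 0.963), and log2 ratios a pseudocount of 0.1. The biological coefficient of variation was 0.165 with the 3 libraries treated as 1 group, without the RNA amount in the model. Motifs were exact matches on both strands. The remaining work ran in Python 3.11.15 with pandas 2.3.3, numpy 2.4.6 and matplotlib 3.10.9. Alternatives were DESeq2 1.42.0, RLE factors, other filters, units, tables and lists, and leaving out each library. No pairing of samples was possible in 1 group.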

Additional observations from a re-analysis of the deposited data

How the results depend on the processing

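The count of the 45 genes called with RNA amount depended on the method, also through how many were tested. Against 11 by edgeR it was 7 with RLE factors, 2 with DESeq2, 4 with kallisto-type counts, 20 with the amount in ng, and, in settings added after seeing the data, 6 with a filter built on the design and 7 without the ribosomal DNA locus genes. It was 13 without a count filter and 9 over genes of at least 300 nt. Over all genes, 1101 calls of 14108 tested became 1022 with RLE factors, 368 with DESeq2 and 3040 with the amount in ng. They became 503 of 22970 with kallisto-type counts and 661 of 15077 with the filter built on the design. Without the ribosomal DNA locus genes they were 952 of 13863. Without a count filter they were 1181 of 24386, and over genes of at least 300 nt 1032 of 13993. No called gene of the list changed direction in a setting that gave it an adjusted p, and DESeq2 gave none for Pif1. The difference in level between the groups, 0.18, was 0.42 with medians and -0.0776 without gene length, and ran from 0.0585 to 0.286 when each library was left out. The difference in slope, 0.04, was -0.0852 in kallisto-type counts and -0.0535 with means, and ran from -0.504 to 0.340 when each library was left out, where 2 libraries leave no test. The difference in retained-intron share, 11.0 points, was 7.72 with at least 10 counts and 16.5 with at least 200 counts. It ran from 9.80 to 13.3 when each library was left out. The causes of these changes were not tested. Levels of 42 of 45 genes moved by more than their spread in the deposited TPM, which are scaled over small RNAs too, and of 16 of 45 in the kallisto-type table. No paired analysis was possible because all 3 libraries belong to 1 group. Depth limits Rfc4, Cdc20, Ccnb2, Gins1, Ccne1, Aurka, Rrm2, Pif1, Plk1 and Ccnb1, each with fewer than 100 counts over the 3 libraries.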
